A study of Mus musculus with 6 samples.

Results

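The 10 genes described here encode the 5 subunits of the transcription factor NF-kB (Nfkb1, Nfkb2, Rel, Rela and Relb) and 5 proteins that are induced by NF-kB and feed back on it (Nfkbia, Nfkbie, Nfkbiz, Tnfaip3 and Birc3). They were taken by symbol from an mRNA table of 22298 genes. Each symbol matched 1 row, and all 10 passed the filter on low counts that left 13082 genes for testing. NF-kB subunits pair into dimers that are held in the cytoplasm by IkB proteins. When cells sense tumour necrosis factor, interleukin-1 or microbial products, the IKK kinases mark IkB for destruction and the dimers enter the nucleus. Among the genes they switch on are those of their own inhibitors, which end the response.

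RNA was sequenced from GC-1spg cells, an immortalised mouse line that serves as a spermatogonial (type B) model, in 3 libraries of cells given a control siRNA (labelled si-NC) and 3 of cells given an siRNA against Mettl3 (si-METTL3). All cells were grown in DMEM with 10% FBS, transfected at 60% density and collected after 48 h. METTL3 is the catalytic subunit of the enzyme that writes N6-methyladenosine (m6A) into RNA. Levels of m6A and of protein were not analysed here. The labels print the same siRNA sequence for both groups and tag the controls as untreated, so the sequence of the control siRNA is not known. Untransfected cells were not analysed here, and the labels do not say whether replicates were separate cultures, so the p-values may measure technical spread only.

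Library totals ran from 22146057 to 37698956 counts. Mettl3, the targeted gene, fell from 8.02, 8.17 and 8.12 FPKM (fragments scaled to transcript length and library depth) to 1.85, 2.45 and 2.57 (log2 fold change -1.79, SE 0.14, edgeR adjusted p = 0.000579). Of 11 germ cell markers, 5 were tested and 2 had 0 counts in every library. The 5 tested had a median log2 fold change of 0.65, and 1 of them was negative. Zbtb16, at a low level, had 1, 2 and 35 counts under si-NC, by replicate number, against 18, 28 and 18 under si-METTL3. Kit, also low, had 17, 14 and 53 against 55, 36 and 53. In both, si-NC replicate 3 lay closer to the si-METTL3 libraries than to the other controls. Gfra1, at a low level, was called higher, from 0.57 ± 0.095 to 0.973 ± 0.075 FPKM (SD, n = 3). Its log2 fold change was 0.65 (edgeR adjusted p = 0.0389), a call that held in 1 of 6 leave-out fits. Uchl1 was well expressed, at 24.35 to 28.8 FPKM, while the germ cell genes Ddx4 and Dazl had at most 7 and 1 counts per library and Sall4 and Pou5f1 had 0. Wt1, a marker of Sertoli cells, rose from 75.1 ± 2.23 to 113 ± 5.80 FPKM (SD, n = 3). Its log2 fold change was 0.61 (edgeR adjusted p = 0.00277), a call that held in 6 of 6 leave-out fits. Gata4 fell by 0.41 on the log2 scale (edgeR adjusted p = 0.0299), a call that held in 1 of 6. The 8 Sertoli and Leydig cell markers had a median log2 fold change of -0.26 over the 5 tested. Their sum, most of it Wt1, was 228 to 249 CPM (counts scaled to library size, not to transcript length) under si-NC against 308 to 330 under si-METTL3. Uchl1 gave most of the summed level of the germ cell markers. It had 35.1 to 41.3 of 39.9 to 48.9 CPM under si-NC and 35.1 to 40.4 of 44.3 to 48.6 under si-METTL3. The library si-NC replicate 2 differed from the other controls in how levels depended on transcript length, with a slope of 0.042 per doubling of length on the log2 scale against -0.13 and -0.15. The si-METTL3 slopes were 0.035, 0.092 and 0.11. Summed over 7 lung epithelium markers, the level was 3.34 and 1.89 CPM for the first pair of controls, 53.1 for si-NC replicate 3, and 53.8 to 79.2 under si-METTL3. The 9 macrophage and leukocyte markers summed to 15.2, 15.4 and 30.9 CPM under si-NC, by replicate number, against 38.8, 38.9 and 31.2 under si-METTL3. Of these, Lyz2 had 0.342, 0.265 and 12.3 CPM against 18.0, 18.5 and 12.3, while Ptprc (CD45) had 0 to 14 counts per library. Endothelial markers summed to 14.9, 15.2 and 22.4 CPM against 26.2, 25.1 and 22.6. Blood markers summed to 0.456, 0.796 and 12.1 against 18.8, 15.9 and 12.4. In these lists too, si-NC replicate 3 lay closer to the si-METTL3 libraries than to the other controls. The part of these markers in the results below was not tested. In bulk RNA fewer cells of a type and less RNA per cell cannot be told apart.

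Stretches of the promoters are shown for the members that hold a match to the kappaB consensus, the DNA pattern that NF-kB dimers bind, because these genes are both parts and known targets of the pathway. RefSeq promoter windows (250 bases before to 50 after a start site, GRCm38.p6) were at hand for 7 of the 10 members, and 5 of the 7 held a match on at least 1 strand. Capitals mark the matches, and overlapping matches on both strands merge into 1 run of capitals. Each sequence reads 5′ to 3′ along the gene.

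Tnfaip3, chr10:19015393-19015555, minus strand: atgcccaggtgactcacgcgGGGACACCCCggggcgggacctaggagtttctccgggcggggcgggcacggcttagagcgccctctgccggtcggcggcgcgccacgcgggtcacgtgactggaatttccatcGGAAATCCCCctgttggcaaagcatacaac
Nfkbia, chr12:55492647-55492696, minus strand: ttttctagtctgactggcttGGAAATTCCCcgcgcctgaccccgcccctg
Nfkbie, chr17:45555574-45555623, plus strand: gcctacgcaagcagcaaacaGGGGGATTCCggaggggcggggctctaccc
Rel, chr11:23771031-23771081, minus strand: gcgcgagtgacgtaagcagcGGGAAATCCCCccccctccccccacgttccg
Nfkb2, start site 1, chr19:46304678-46304755, plus strand: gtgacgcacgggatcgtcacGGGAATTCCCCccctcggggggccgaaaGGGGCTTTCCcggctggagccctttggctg
Nfkb2, start site 3, chr19:46305685-46305734, plus strand: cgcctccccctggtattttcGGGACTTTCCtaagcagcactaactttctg

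In Tnfaip3 the matches began 125 and 12 bases before the start site, in Nfkbia 29, in Nfkbie 106 and in Rel 92 and 91. In Nfkb2 they began 39, 38 and 11 bases before start site 1. The match shown for Nfkb2 start site 3 begins 225 bases before it. Counted from start site 2 as base 1, the same match begins at base 11. The window of start site 2 holds 1 further match, 236 bases before that site. Over all 32851 windows in the RefSeq table, 4.51% held a match, and 5.14% of 27025 genes did so in at least 1 window. Birc3 and Rela held none in their windows. A pattern contained in elements that answer to interferon, 2 GAAA blocks with 2 bases between them, searched on both strands, was found in 3.44% of all windows and in none of the 7 members' windows. These matches describe the letters of the windows and show no binding.

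**Figure D1:**
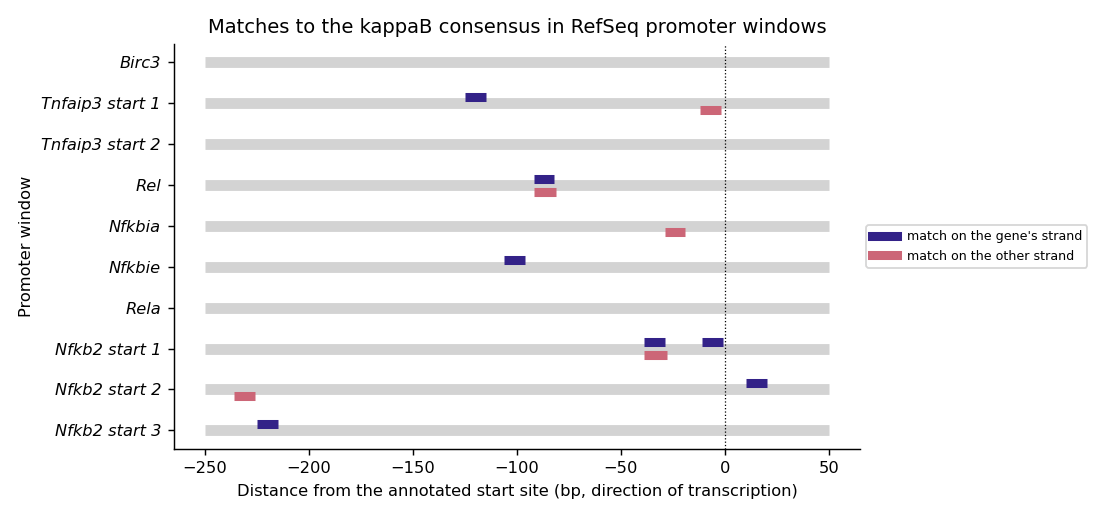
Positions of matches to the kappaB consensus in the RefSeq promoter windows of 7 members (grey bars, 250 bp before to 50 bp after each start site, x axis in bp). Blue marks a match on the strand of the gene and red one on the other strand, and the windows of Birc3, Rela and Tnfaip3 start 2 hold none.

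Of the 10 members, 5 were lower in si-METTL3 and none was higher (edgeR quasi-likelihood test, adjusted p under 0.05 over all tested genes). Over all 13082 genes, 10.2% were called lower and 8.67% higher. At an unadjusted p under 0.05, 8 members were lower and none was higher, where 18.8% and 16.9% of all tested genes were, and DESeq2 and limma-voom also called none higher. The 5 that fell were Tnfaip3, Relb, Nfkbia, Nfkbie and Rela, by 1.29- to 2.05-fold. The median log2 fold change of the 10 members was -0.39, and that of all tested genes 0.03. In 8 members the CPM of every si-METTL3 library lay below that of every si-NC library, which held for 21.3% of all tested genes. The opposite order was found in none of the members and in 20.2% of all tested genes. The fit was repeated 6 times with 1 library left out. The count of 5 became 3 in the fits without the first si-NC library, without si-METTL3 replicate 2 and without the third si-METTL3 library. It was 4 without si-NC replicate 3 and without si-METTL3 replicate 1, and 7 without si-NC replicate 2, when Rel was also called higher.

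**Figure D2:**
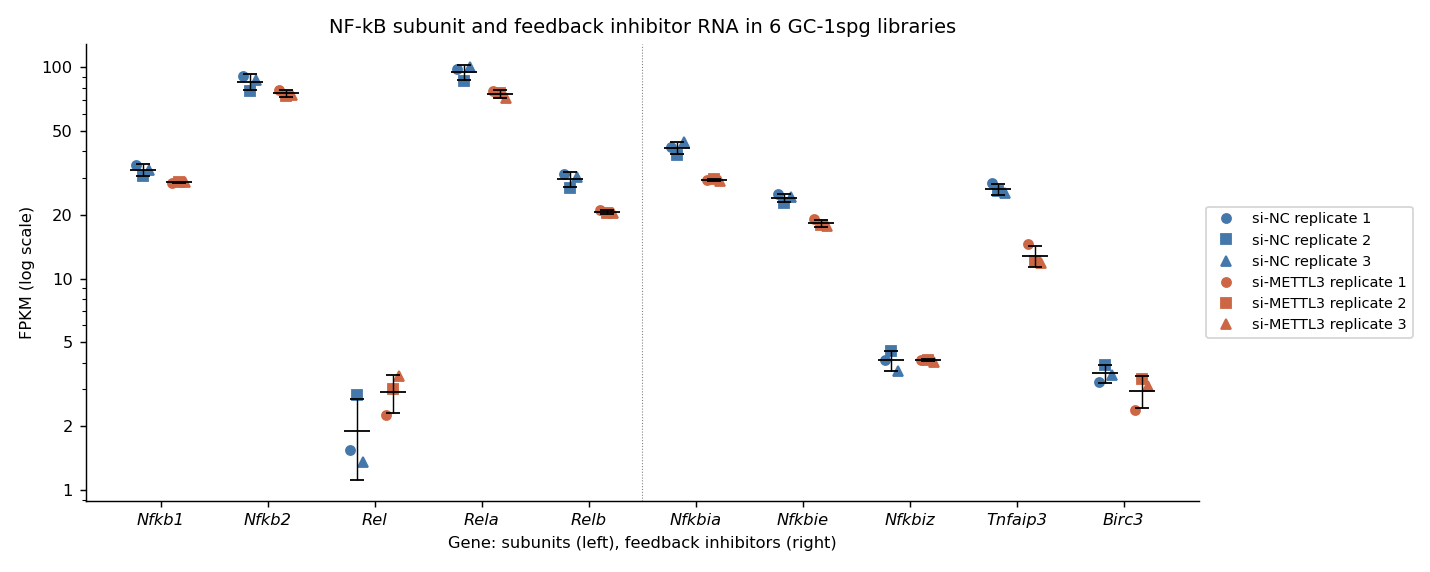
FPKM (log axis) of each member in the 3 si-NC (blue) and 3 si-METTL3 (orange) libraries, with the mean and SD of each group in black and a symbol for each replicate number. Tnfaip3 shows the widest gap, 25.3 to 28.3 FPKM against 11.9 to 14.5, and Nfkb2, Rel, Nfkbiz and Birc3 overlap between the groups in FPKM.

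Levels per transcript length, in the FPKM the authors deposited, differed widely among the members. In si-NC the order from high to low was Rela (94.7 ± 7.87, SD, n = 3), Nfkb2 (85.3 ± 7.15), Nfkbia (41.6 ± 2.86), Nfkb1 (32.6 ± 2.06), Relb (29.5 ± 2.26), Tnfaip3 (26.5 ± 1.59), Nfkbie (24.0 ± 1.07), Nfkbiz (4.10 ± 0.450), Birc3 (3.56 ± 0.339) and Rel (1.90 ± 0.786). Libraries of neighbours in this order overlapped for Rela with Nfkb2, Nfkb1 with Relb, Relb with Tnfaip3, and Nfkbiz with Birc3. In si-METTL3 the pair at the top, Nfkb2 and Rela, still overlapped, and Tnfaip3 came after Nfkbie with no overlap. Birc3 and Rel overlapped there as well.

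Rela encodes p65, the subunit with a strong activation domain that forms the main inducible dimer with p50. Its FPKM was 98.3, 85.7 and 100.2 in the controls, by replicate number, against 77.4, 75.7 and 71.2 under si-METTL3. The groups did not overlap. The log2 fold change was -0.37 (SE 0.08, edgeR adjusted p = 0.0243). This call was fragile. It held in 1 of the 6 leave-out fits, the one without si-NC replicate 2 (-0.44), and was lost in the other 5, with log2 fold changes from -0.41 to -0.34 and edgeR adjusted p from 0.0533 to 0.104. With the replicate number as a block it was -0.37 (edgeR adjusted p = 0.0599).

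Relb, which pairs mainly with p52 in the slower, non-canonical branch of the pathway, had 31.2, 26.9 and 30.4 FPKM under si-NC against 21.2, 20.5 and 20.3 under si-METTL3. All si-METTL3 libraries were lower, and their values lay closer together than those of si-NC. Relb fell by 0.54 on the log2 scale (SE 0.08, edgeR adjusted p = 0.0076), or 1.45-fold, and the call held in 6 of 6 leave-out fits.

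Nfkb1 and Nfkb2 encode the precursors p105 and p100, which are processed to the DNA-binding subunits p50 and p52 and act as IkB-like inhibitors before that. Nfkb1 had 34.6, 30.5 and 32.8 FPKM under si-NC against 28.45, 28.47 and 28.51 under si-METTL3, a log2 fold change of -0.19 (95% CI -0.37 to -0.02, edgeR adjusted p = 0.111). Nfkb2 had 91.1, 77.3 and 87.3 against 78.2, 73.1 and 74.0, a log2 fold change of -0.22 (95% CI -0.41 to -0.03, edgeR adjusted p = 0.105). The Nfkb1 groups did not overlap, whereas si-NC replicate 2 of Nfkb2 lay below si-METTL3 replicate 1 in FPKM though not in CPM. Both were called lower without si-NC replicate 2 (-0.25 and -0.29, edgeR adjusted p = 0.0171 and 0.0076). Both were also called with each library corrected for transcript length and GC content (-0.29 and -0.37, edgeR adjusted p = 0.0202 and 0.00936). On GRCm38, Nfkb2 overlaps the gene Psd by 299 bases and the lncRNA gene AC114539.1 by 1292 bases, both on the opposite strand. Nfkb1 overlaps Gm43430, an annotated transcript still to be tested experimentally, by 3897 bases on the same strand. The values of both are uncertain to that extent, and the sources used here do not give whether reads were counted by strand.

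Rel encodes c-Rel, best known from lymphocytes. It was the least abundant subunit and the only member with a positive log2 fold change. Its counts were 497, 759 and 459 in the controls against 642, 606 and 777 under si-METTL3, which gave 1.55, 2.80 and 1.35 FPKM against 2.26, 2.99 and 3.45. Among the controls si-NC replicate 2 stood high and lay within the range of the si-METTL3 libraries. The log2 fold change of 0.60 did not pass (SE 0.29, 95% CI -0.08 to 1.28, edgeR adjusted p = 0.182). Without si-NC replicate 2 it was 0.97 and passed (edgeR adjusted p = 0.0138), and in the other 5 leave-out fits it lay between 0.39 and 0.74 and did not pass. The Rel transcript is long and poor in G and C, 7466 bases and 42.5% GC, above 92.3% and 12.1% of 13014 tested genes. With the length and GC correction the value was 0.21 (edgeR adjusted p = 0.222).

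**Figure D3:**
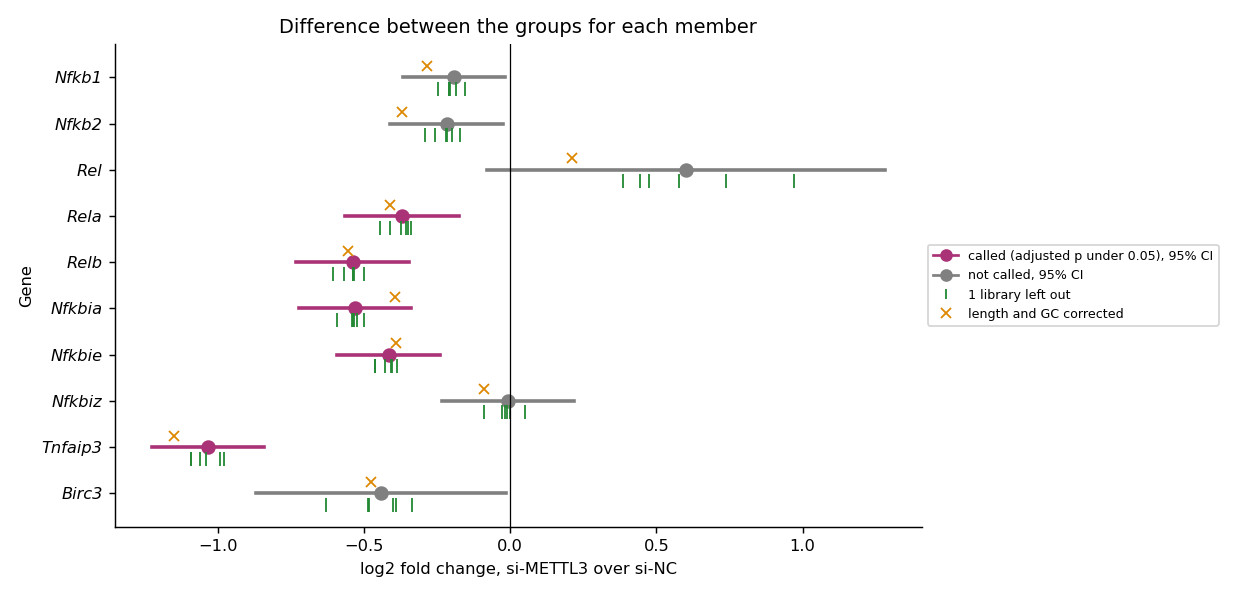
Log2 fold change of each member (x axis, si-METTL3 over si-NC; edgeR) with its 95% confidence interval as a bar, coloured where the adjusted p was under 0.05. Green ticks give the value with 1 library left out and orange crosses the value after the length and GC correction, so the spread of Rel from 0.21 to 0.97 and the narrow range of Tnfaip3 can be compared.

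Among the inhibitors, Tnfaip3 changed most. It encodes A20, a ubiquitin-editing enzyme that shuts down signalling from the tumour necrosis factor receptor and from Toll-like receptors. Its counts were 4831, 3712 and 4485 in the controls against 2095, 1320 and 1548 under si-METTL3, or 28.3, 25.9 and 25.3 FPKM against 14.5, 12.1 and 11.9. The lowest control was well above the highest si-METTL3 library. Tnfaip3 fell 2.05-fold (log2 fold change -1.03, SE 0.08, edgeR adjusted p = 0.00064), and the value stayed between -1.09 and -0.98 in the 6 leave-out fits, all of which called it.

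Nfkbia and Nfkbie encode IkB-alpha and IkB-epsilon, which bind NF-kB dimers in the cytoplasm. Nfkbia had 41.9, 38.5 and 44.2 FPKM in the controls against 29.2, 29.4 and 28.9 under si-METTL3 and fell by 0.53 on the log2 scale (SE 0.08, edgeR adjusted p = 0.00805), a call that held in 6 of 6 leave-out fits. Nfkbie had 24.98, 22.87 and 24.2 FPKM against 19.1, 17.9 and 17.7 and fell by 0.41 (SE 0.07, edgeR adjusted p = 0.0126). Neither gene overlapped between the groups. The Nfkbie call was lost in the fits without the first si-NC library, without si-METTL3 replicate 2 and without the third si-METTL3 library (edgeR adjusted p = 0.068, 0.0679 and 0.0657), where its log2 fold change was between -0.41 and -0.39.

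Nfkbiz encodes IkB-zeta, a nuclear IkB protein that works as a cofactor at a subset of NF-kB targets. It had 4.10, 4.55 and 3.65 FPKM in the controls against 4.13, 4.14 and 4.05 under si-METTL3, with the si-METTL3 libraries inside the control range. Its log2 fold change was -0.0064 (95% CI -0.23 to 0.22, edgeR adjusted p = 0.97), an interval that leaves out a fall of the size of that in Nfkbia. Birc3 encodes cIAP2, a ubiquitin ligase of the receptor complexes. Its counts of 211, 206 and 228 in the controls against 123, 131 and 108 under si-METTL3 were low, and the log2 fold change of -0.44 did not pass (SE 0.18, 95% CI -0.87 to -0.02, edgeR adjusted p = 0.129). Its FPKM of 3.25, 3.92 and 3.50 against 2.38, 3.35 and 3.09 overlapped between the groups, although its CPM did not.

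The gap between the Birc3 scales went with the length that the FPKM imply. Counts divided by FPKM, taken relative to Relb in the same library, ranged from 0.538 in si-METTL3 replicate 3 to 0.699 in si-NC replicate 1 for Birc3. This is a 1.30-fold range over the 6 libraries, where those of the other members other than Tnfaip3 (1.14-fold) were at most 1.05-fold. From the means of the deposited FPKM the log2 ratio of Birc3 was -0.27, and for Tnfaip3 it was -1.05. Each of these genes has 4 annotated coding transcripts, and Birc3 has a close paralog, Birc2 (log2 fold change 0.11). The sources used here do not give how reads were divided between them, so the Birc3 value is uncertain.

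In the authors' deposited table the same 5 members, Tnfaip3, Nfkbia, Relb, Nfkbie and Rela, are listed at an adjusted p under 0.05, from 1.92e-16 for Tnfaip3 to 0.00564 for Rela, where the authors' deposited table lists 6.44% of its 22298 genes as lower. That total includes 4631 genes with 0 counts in every library, so the share is over another set than the 13082 tested genes. The authors' deposited table gives Rel an adjusted p of 0.129 and Birc3 one of 0.168.

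Summed subunit RNA was lower in each si-METTL3 library than in each control. The FPKM of the 5 subunits added up to 257, 223 and 252 in the controls against 208, 201 and 197 under si-METTL3. Rela made up 38.3% to 39.8% of this sum in si-NC and 36.0% to 37.7% in si-METTL3, and Nfkb2 34.6% to 35.5% against 36.4% to 37.7%, with no overlap for either. The share of Relb was 12.0% to 12.1% in si-NC and 10.2% to 10.3% in si-METTL3, with no overlap. Rel made up 0.536% to 1.25% in si-NC and 1.09% to 1.75% in si-METTL3, which overlap.

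The level of inhibitor RNA per subunit RNA was lower under si-METTL3. Summed over the 5 inhibitors and divided by the sum over the 5 subunits, the FPKM ratio was 0.399, 0.429 and 0.400 in the controls against 0.334, 0.333 and 0.332 under si-METTL3. All 3 si-METTL3 libraries lay below the controls and close together. The inhibitors did not share this evenly. Mean FPKM went from 26.5 to 12.8 for Tnfaip3, 41.6 to 29.2 for Nfkbia, 24.0 to 18.2 for Nfkbie and 3.56 to 2.94 for Birc3. For Nfkbiz it was 4.10 and 4.11. The ratio without Tnfaip3 was not computed. The ratio of Nfkbia to Rela was 0.427 to 0.450 in si-NC and 0.377 to 0.406 in si-METTL3, and that of Tnfaip3 to Rela 0.252 to 0.302 against 0.159 to 0.187. The ratio of Nfkb2 to Nfkb1 overlapped, at 2.54 to 2.66 and 2.57 to 2.75. These ratios are given as a description with no test, since both sums are made of members.

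**Figure D4:**
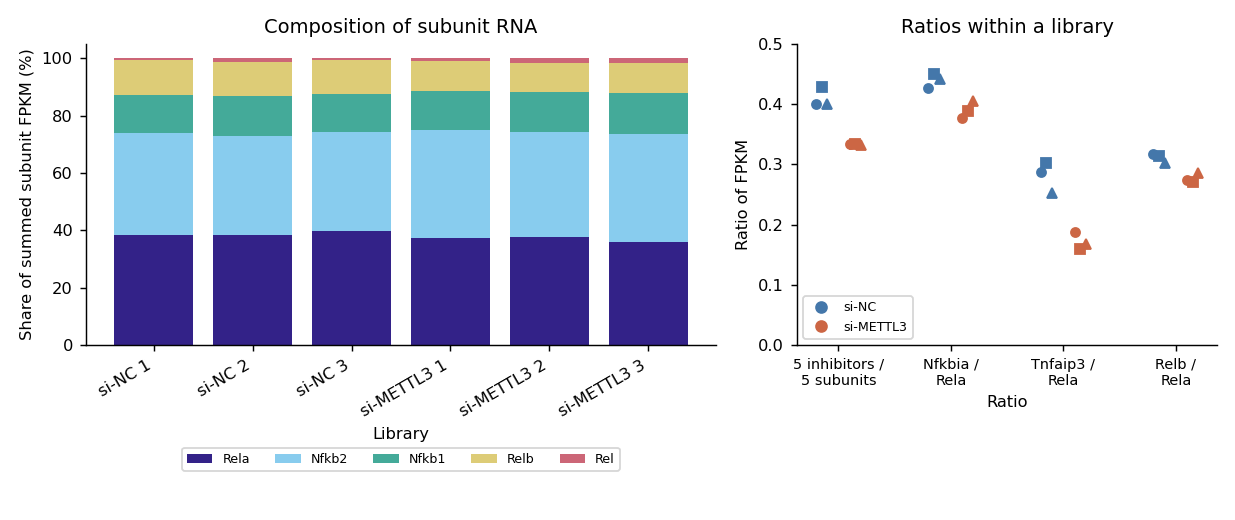
Left, share of each subunit in the summed subunit FPKM (%, stacked bars, 1 bar per library). Right, ratios of FPKM within each library for si-NC (blue) and si-METTL3 (orange), where the ratio of the 5 inhibitors to the 5 subunits was 0.399 to 0.429 in si-NC and 0.332 to 0.334 in si-METTL3.

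The transcripts of the members differed in features that bear on RNA stability and methylation. In the longest coding transcript of GENCODE M21 (GRCm38), the AU-rich nonamer TTATTTATT, a signal for rapid decay, was present in the 3′ UTR of 4 members and of 8.21% of 13014 tested genes. It occurred 3 times in Birc3 and once each in Tnfaip3, Nfkbia and Rel. Of these 4, Tnfaip3 and Nfkbia fell while Birc3 and Rel did not pass. The 5-letter sequence GGACT is 1 form of the motif METTL3 methylates, and other forms were not counted. GGACT occurred 2.49 times per kilobase in Tnfaip3, 2.21 in Rela, 2.08 in Nfkb2 and 1.90 in Nfkbia, each above 86.8% or more of tested genes. It was sparse in Birc3 (0.344), Rel (0.402) and Nfkbiz (0.486), each above at most 16.6% of tested genes, and the median of tested genes was 1.05. Relb (1.36), Nfkbie (0.821) and Nfkb1 (0.729) lay between. Motif letters show no methylation, and Rela, Nfkb2 and Relb are also among the transcripts richest in G and C (59.4%, 59.4% and 61.1%, median 50.4%).

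On GRCm38 the genes lie on 9 chromosomes, with Nfkb2 (46304320 to 46312385) and Rela (5637483 to 5648130) both on the plus strand of chromosome 19. Tnfaip3 spans 19000910 to 19015657 on the minus strand of chromosome 10, Nfkbia 55489410 to 55492647 on the minus strand of chromosome 12 and Relb 19606217 to 19629438 on the minus strand of chromosome 7. The submitters' processing notes name the build mm9, so no position in the deposited tables was compared with these.

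In all, 9 non-coding transcripts of 6 members were listed in the lncRNA table. Only 1 had enough counts to be tested, an Nfkbiz transcript with 14, 16 and 5 counts in the controls against 8, 12 and 4 under si-METTL3. It did not pass (log2 fold change -0.22, SE 0.68, edgeR adjusted p = 0.907), and 0.733% of the 5728 transcripts tested there did. The other 8 held at most 8 counts over all 6 libraries. A change in these transcripts was not detectable at this depth.

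Counts for the genes upstream of NF-kB are to be read against the shares of all tested genes called lower (10.2%) and higher (8.67%), and in lists of this size 1 or 2 calls each way lie near them. Of 10 genes for the IKK and NIK kinases and their partners, edgeR, DESeq2 and limma-voom called none in either direction, and 1 was lower and 1 higher at an unadjusted p under 0.05 in edgeR (median log2 fold change 0.12). Tab1 (-0.22, edgeR adjusted p = 0.0745), an activator of TAK1, and Chuk (0.40, edgeR adjusted p = 0.248), which encodes IKK-alpha, had the highest FPKM averaged over the 6 libraries. Without si-NC replicate 2, 1 of these 10 was lower and 3 higher, and after the length and GC correction 3 were lower. Of 19 tested adaptors, Traf2, which links tumour necrosis factor receptors to IKK, was the only one called, falling from 26.1 ± 2.64 to 19.1 ± 1.18 FPKM (SD, n = 3), a log2 fold change of -0.48 (edgeR adjusted p = 0.0205). That call was lost in 3 of 6 leave-out fits, with adjusted p up to 0.0884. Ripk1, the kinase of the same receptor complex, was at 22.7 ± 0.438 FPKM in si-NC and 26.2 ± 0.345 in si-METTL3 (0.17, edgeR adjusted p = 0.0991). The adaptor gene Bcl10 did not pass either (-0.10, edgeR adjusted p = 0.359).

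Of 12 tested receptors, 1 fell and 2 rose, near the shares of all genes. Tnfrsf12a, the receptor of the cytokine TWEAK and the most abundant of them, fell from 414 ± 33.8 to 277 ± 26.4 FPKM (SD, n = 3), a log2 fold change of -0.59 (edgeR adjusted p = 0.00865). It was called in 4 of the 6 leave-out fits, with adjusted p up to 0.0512. The interleukin-1 receptor gene Il1r1 rose from 0.523 ± 0.115 to 0.840 ± 0.0700 FPKM (0.66, edgeR adjusted p = 0.0488) and Tlr6 from 2.70 ± 0.539 to 3.66 ± 0.725 (0.44, edgeR adjusted p = 0.0375). Both of these calls held in 1 of 6 leave-out fits, with adjusted p up to 0.144 and 0.138. Ltbr (-0.27) and Tnfrsf1b (0.02), receptors for lymphotoxin and tumour necrosis factor, did not pass.

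Of the ligands, the classical inducers were close to undetected. Tnf counts were 14, 9 and 16 in the controls against 8, 2 and 6 under si-METTL3, and Il1a and Il1b had at most 3 and 4 counts in any library. Of 4 ligands with enough counts, Il18 rose from 2.33 ± 0.387 to 4.02 ± 0.355 FPKM (0.69, edgeR adjusted p = 0.0376), a call kept in 1 of 6 leave-out fits (adjusted p up to 0.135). The IL-1 family gene Il33 (0.72, edgeR adjusted p = 0.05001) and the TWEAK gene Tnfsf12 (0.21) did not pass. Tnfsf13b went the other way, with 22, 19 and 19 counts in the controls against 8, 7 and 8 under si-METTL3. At an unadjusted p under 0.05 in edgeR, 1 of the 4 ligands was lower and 2 were higher. After the length and GC correction 1 was called lower and 2 higher.

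The remaining IkB relatives, all 4 tested, went the way of Nfkbia in 2 cases. Nfkbib, encoding IkB-beta, fell from 29.0 ± 0.880 to 21.7 ± 2.27 FPKM (SD, n = 3), a log2 fold change of -0.44 (edgeR adjusted p = 0.0221), and the call held in 2 of the 6 leave-out fits, with adjusted p up to 0.0909. Nfkbil1, named for its likeness to IkB, fell from 27.0 ± 2.39 to 17.3 ± 1.11 (-0.68, edgeR adjusted p = 0.00662), in 6 of 6 leave-out fits. Bcl3 (0.04), a nuclear IkB protein like IkB-zeta, and Nfkbid (-0.32, SE 0.26) did not pass. Among 18 genes of ubiquitin editing in the pathway, 1 fell and 2 rose, again near the shares of all genes. Rnf31, the catalytic subunit of the linear ubiquitin ligase, fell by 0.54 on the log2 scale (edgeR adjusted p = 0.0425), while its partners Rbck1 (-0.03) and Sharpin (-0.15) did not pass. Tnip3, an A20-binding protein gene, rose from 2.20 ± 0.418 to 4.64 ± 0.795 FPKM (1.03, edgeR adjusted p = 0.0197) and Usp21 by 0.41 on the log2 scale (edgeR adjusted p = 0.0348). The calls of Rnf31, Tnip3 and Usp21 held in 1, 2 and 1 of the 6 leave-out fits, with adjusted p up to 0.144, 0.081 and 0.121.

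**Figure D5:**
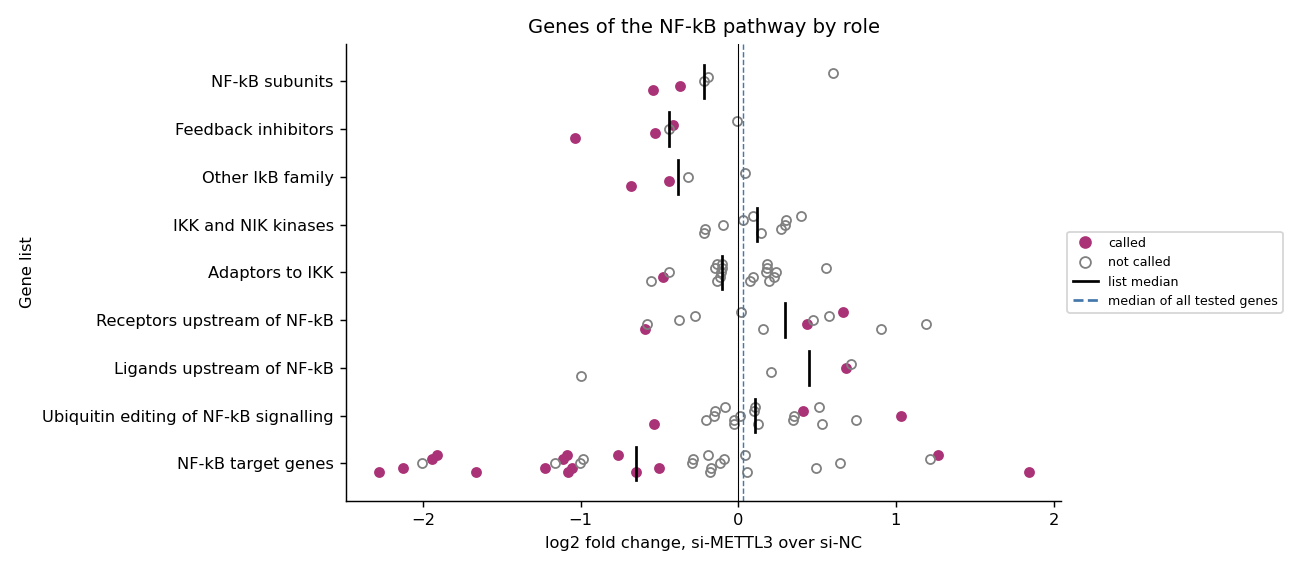
Log2 fold change (x axis, si-METTL3 over si-NC) of every tested gene of 9 lists ordered by role in the NF-kB pathway. Filled points passed an adjusted p under 0.05, black bars are list medians (-0.22 for subunits, -0.44 for feedback inhibitors, 0.12 for kinases and -0.65 for targets) and the dashed line is the median of all tested genes, 0.03.

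Of 31 tested genes known as NF-kB targets, 13 fell and 2 rose, where 10.2% and 8.67% of all tested genes did, and their median log2 fold change was -0.65. The leading falls were in Ccl5 (-2.28), Tap1 (-2.12), Saa3 (-1.94) and Cxcl10 (-1.91). Ccl5, a chemokine gene, had 68.0, 53.0 and 63.6 FPKM in the controls against 11.7, 14.8 and 12.0 under si-METTL3 (edgeR adjusted p = 0.000282). Saa3, an acute-phase gene, had 5.97, 7.07 and 7.61 FPKM against 2.15, 1.73 and 1.55 (edgeR adjusted p = 0.00194). Ccl5, Cxcl10 and the peptide transporter gene Tap1 are also known to answer to interferon, and all 13 interferon response genes listed fell, with a median of -3.61. The other targets were not sorted by whether they answer to interferon. Both lists were chosen with earlier results of these data known, so their counts are a description with no test. Against this direction, C3, encoding complement component 3, rose from 18.8 ± 1.23 to 45.2 ± 0.539 FPKM (1.27, edgeR adjusted p = 0.000298) and the protease gene Mmp3 from 0.50 ± 0.062 to 1.82 ± 0.159 (1.84, edgeR adjusted p = 0.00204). The survival gene Bcl2l1 (-0.09) and Ier3 (-0.12), both well expressed, did not pass. The number of targets called lower was 8 without si-METTL3 replicate 3 and lay between 9 and 15 in the other leave-out fits, and 2 were higher in each of the 6.

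The genes whose profiles over the 6 libraries lay nearest to those of the members were found by the root mean square distance between log2 CPM values centred on each gene's mean. For Tnfaip3 the nearest was Csf1, the macrophage growth factor gene (distance 0.0641; log2 fold change -1.06), followed by Rnf225 (0.0652) and Rassf1 (0.0675). For Nfkbia it was Znrd2 (0.0212), for Nfkbie Ptpn11 (0.0101), for Rela Rae1 (0.0113) and for Relb Rnps1 (0.0165). For Rel the nearest were Elmod2 (0.0309), Gpcpd1 (0.032) and Ccp110 (0.0347), with log2 fold changes of 0.58 to 0.62 that did not pass either. For Nfkb1 the nearest was Kctd3 (0.0169), for Nfkb2 Dnajb2 (0.0171) and for Birc3 Zfp692 (0.0674). The measure rests on 6 libraries, and these genes were named for likeness of pattern over the libraries alone.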

How the data were processed

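RNA levels in 6 libraries of GC-1spg cells were taken from the mRNA and lncRNA tables of the series. Per the file headers, the deposited values are counts and FPKM per library, the authors' mean FPKM per group, their log2 fold change and their p-values. The build mm9 and the tools RSEM, StringTie, Bowtie2 and fastp are named, per the submitters' processing notes, without versions or roles. The sources used here do not give the test behind the deposited p-values. Groups and replicate numbers came from the sample titles.

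Counts were tested across all genes with edgeR 4.0.16 in R 4.3.3 (TMM, filterByExpr, quasi-likelihood fit of the group, Benjamini-Hochberg adjustment, threshold 0.05). The tables were tested separately. SE is the absolute log2 fold change over the square root of F, and CPM are scaled to the effective library size. Alternatives used DESeq2 1.42.0, limma 3.58.1, offsets for transcript length and GC content (splines with 4 degrees of freedom, 99.5% of tested genes annotated), a replicate block, and leaving out each library. Of the names in the text, Mettl3 and all members were given. In each pathway list up to 4 called genes with the largest change each way and the 2 most abundant uncalled genes were named, and for each tested member the 3 nearest profiles were found, of which the text gives the nearest (all 3 for Tnfaip3 and Rel). The nearest of 1 member is not reported here. Other genes were named after their values were seen. The members and lists were chosen with earlier results of these data known. Replicates of a group differed by more than counting noise. Figures were drawn with matplotlib 3.10.9.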

Additional observations from a re-analysis of the deposited data

How the results depend on the processing

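Over all tested genes 2468 were called, 1273 with a replicate block, 3602 with the length and GC correction, 3343 with both, and between 665 and 4917 when 1 library was left out. The number of members called lower was 5. It was between 3 and 7 with 1 library left out, 4 with the replicate block, and 7 with the length and GC correction, with or without the block. It was 5 with the size factors of DESeq2, with DESeq2 itself, with limma-voom, with limma on log2(FPKM + 1) or log2(FPKM + 0.1), and without the filter on low counts. The number called higher was 0 in these fits and 0 to 1 with a library left out. Tnfaip3, Relb and Nfkbia were called in all 15 alternatives, with log2 fold changes of -1.15 to -0.98, -0.61 to -0.49 and -0.59 to -0.39. Nfkbie was called in 12 and Rela in 9. Nfkbiz, close to 0 in each fit, changed sign with limma-voom (0.00096), limma on FPKM (0.0056 and 0.0078) and with a library left out (-0.089 to 0.050). Its non-coding transcript ranged from -0.76 to 0.11 with a library left out, an alternative chosen after seeing the data. Deviations from the group means correlated at 0.044, 0.18 and -0.28 between libraries of the same replicate number. Between libraries of unlike numbers the correlations ran from -0.35 to 0.30. With 3 libraries per group this cannot tell whether the samples were paired. The block changed the call of Rela and of no other member. Birc3, with 108 to 228 counts per library, had the lowest counts of the members, which limited its precision.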
